A study of Mus musculus with 2 samples.

Results

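The sites described here are intergenic EP300 peaks of the newborn mouse lung that lie more than 10 kb and at most 100 kb from the nearest transcription start site (TSS) of a protein-coding gene. A site was a member when the summit of its peak met 3 conditions. The summit lay at that distance, outside every protein-coding gene body, and more than 1 kb from the TSS of any noncoding gene. Of the 43296 reproducible peaks on chromosomes 1 to 19, 9011 met this rule, 20.8% (95% Wilson interval 20.4% to 21.2%). Binding of EP300 was measured by ChIP-seq (chromatin immunoprecipitation followed by sequencing), and the tissue was the whole lung of B6NCrl mice at postnatal day 0. The data are 2 libraries of 1 group, with no genetic change or treatment named, and the question addressed is where EP300 lay. Both libraries name 1 donor and 1 biosample record in the labels, so their spread, which may be technical, is not a spread between animals, and the tissue is a mixture of cell types. The reproducible peaks are the authors' optimal set, made from both libraries, and each library also had a list of its own.

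EP300 (p300) is a lysine acetyltransferase that does not bind DNA by sequence itself and is brought to chromatin by transcription factors. It acetylates histone H3 at lysine 27 among other targets, and its distal peaks are widely used to find enhancers, the stretches of DNA that raise transcription of a gene at a distance. In the lung at birth the known regulators include NKX2-1 and FOXA factors in the epithelium, ERG and SOX17 in endothelium, TEAD with YAP in alveolar type 1 (AT1) cells, and the glucocorticoid receptor. The last of these prepares the lung for breathing.

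The 100 bp around the summit are shown for 14 members on the plus strand of mm10 (GRCm38), from RefSeq's genome sequence, to show what lay under the strongest sites and those with the called sequences. The first 10 are among the 11 strongest members by the authors' signal value, in falling order. Capitals mark matches to the sequences that were called more frequent at summits than beside them, described further on. Each site is named by its nearest protein-coding gene, which is not a measured link.
Fos: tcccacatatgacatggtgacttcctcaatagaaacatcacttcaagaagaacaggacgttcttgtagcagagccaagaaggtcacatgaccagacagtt
Slc44a3: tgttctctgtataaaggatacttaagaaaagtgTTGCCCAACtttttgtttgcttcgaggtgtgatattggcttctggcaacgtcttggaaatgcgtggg
Ap1m1: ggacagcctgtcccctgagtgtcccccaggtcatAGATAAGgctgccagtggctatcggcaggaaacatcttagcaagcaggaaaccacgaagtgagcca
Hopx: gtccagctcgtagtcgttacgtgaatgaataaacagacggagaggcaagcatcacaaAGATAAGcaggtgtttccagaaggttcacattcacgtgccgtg
Ddx47: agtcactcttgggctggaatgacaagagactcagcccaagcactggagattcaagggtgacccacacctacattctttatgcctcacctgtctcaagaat
Mbip: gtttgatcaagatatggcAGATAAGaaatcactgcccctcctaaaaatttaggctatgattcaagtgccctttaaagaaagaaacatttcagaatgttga
Selenbp1: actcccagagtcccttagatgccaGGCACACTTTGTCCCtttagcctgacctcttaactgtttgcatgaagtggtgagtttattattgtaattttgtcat
Slc45a1: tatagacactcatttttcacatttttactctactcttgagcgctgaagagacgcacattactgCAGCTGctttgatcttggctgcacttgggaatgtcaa
AA986860: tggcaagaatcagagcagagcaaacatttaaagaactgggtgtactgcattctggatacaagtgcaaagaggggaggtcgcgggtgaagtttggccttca
Zfp957: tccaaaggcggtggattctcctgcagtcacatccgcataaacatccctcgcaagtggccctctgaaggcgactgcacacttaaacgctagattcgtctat
The capitals are a GATA match under the sites of Ap1m1, Hopx and Mbip, a C/EBP match at Slc44a3, a glucocorticoid response element (GRE) at Selenbp1 and the E-box CAGCTG at Slc45a1. None of the called sequences was found in the windows of Fos, Ddx47, AA986860 and Zfp957.

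The other 4 windows stand for the sequences with the highest ratio of summit to flank. For the GRE this is the window of Selenbp1 above, the second strongest member with one.
Tmem100: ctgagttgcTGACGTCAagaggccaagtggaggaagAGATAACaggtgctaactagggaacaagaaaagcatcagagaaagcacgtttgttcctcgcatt
Cysltr2: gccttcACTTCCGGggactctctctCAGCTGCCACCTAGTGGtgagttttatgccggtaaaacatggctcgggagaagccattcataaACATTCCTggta
Xdh: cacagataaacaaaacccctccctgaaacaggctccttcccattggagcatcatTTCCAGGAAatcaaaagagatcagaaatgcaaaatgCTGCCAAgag
Ddit4: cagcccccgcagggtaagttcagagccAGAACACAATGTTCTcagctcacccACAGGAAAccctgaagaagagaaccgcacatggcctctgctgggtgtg
Tmem100 is shown for the CREB sequence TGACGTCA, Cysltr2 for CTCF, Xdh for STAT and Ddit4 for ERG. The capitals at Ddit4 hold a GRE as well, upstream of the ERG match as printed. Those at Cysltr2 hold an ETS, an E-box and a TEAD match beside the CTCF match, which overlaps the E-box.

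The windows shown for the strongest sites lie at chr12:85532680-85532779 (Fos), chr3:121561905-121562004 (Slc44a3), chr8:72268428-72268527 (Ap1m1), chr5:77151174-77151273 (Hopx) and chr6:135025190-135025289 (Ddx47). The next 5 lie at chr12:56426905-56427004 (Mbip), chr3:94913867-94913966 (Selenbp1), chr4:150740331-150740430 (Slc45a1), chr1:130764275-130764374 (AA986860) and chr14:79274165-79274264 (Zfp957). The other 4 lie at chr11:90094215-90094314 (Tmem100), chr14:72983666-72983765 (Cysltr2), chr17:73962697-73962796 (Xdh) and chr10:59974246-59974345 (Ddit4). All 14 are intergenic by the rule, and the Fos site lies inside the body of a noncoding gene, Gm32296.

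The strongest member had a signal value of 530, a peak height measure that the authors deposited with no scaling stated. It lay 58.8 kb downstream of the TSS of Fos, which encodes a subunit of the AP-1 transcription factor, and before Jdp2, which encodes an AP-1 repressor. It ranked 4 among all 43988 reproducible peaks, 4 in library 1 (signal 283) and 8 in library 2 (signal 250), so both libraries placed it near the top. The other 10 members nearest to Fos had signals of 147 at most. The member upstream of Slc44a3, a choline transporter-like gene, had 516 (267 in library 1 and 248 in library 2) and that downstream of Ap1m1, a clathrin adaptor subunit, had 490 (269 and 215).

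Next in signal came members nearest to Hopx, Ddx47 and Mbip. Hopx, a homeodomain-only protein and AT1 marker, had a member with signal 489 at 36.1 kb upstream, with 263 in library 1 and 228 in library 2. A second at 39.9 kb had 381 (208 and 174), and Hopx had 9 members in all. The member with 481 (273 in library 1 and 214 in library 2) was nearest to Ddx47, an RNA helicase gene, at 13.6 kb. The gene on its other side, 40.4 kb away, is the AT1 marker Gprc5a. A member with 460 (240 and 220) lay 81.1 kb upstream of Mbip. The neighbour on its other side, with its TSS 108 kb away, is Nkx2-1, the master transcription factor of lung epithelium.

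The remaining members among the 15 strongest were nearest to genes of varied roles. They included Selenbp1 (signal 445), Slc45a1 (443), AA986860 (441), Zfp957 (435), Tmem100 (431), Marcks (427), 4930432M17Rik (422) and Cd180 (412). Tmem100 is an endothelial gene downstream of BMP signalling, and Marcks encodes an actin-binding substrate of protein kinase C. All 15 were among the strongest 75 peaks of library 1 and the strongest 57 of library 2. The lowest rank was held by Cd180 in library 1 and by 4930432M17Rik in library 2.

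**Figure D1:**
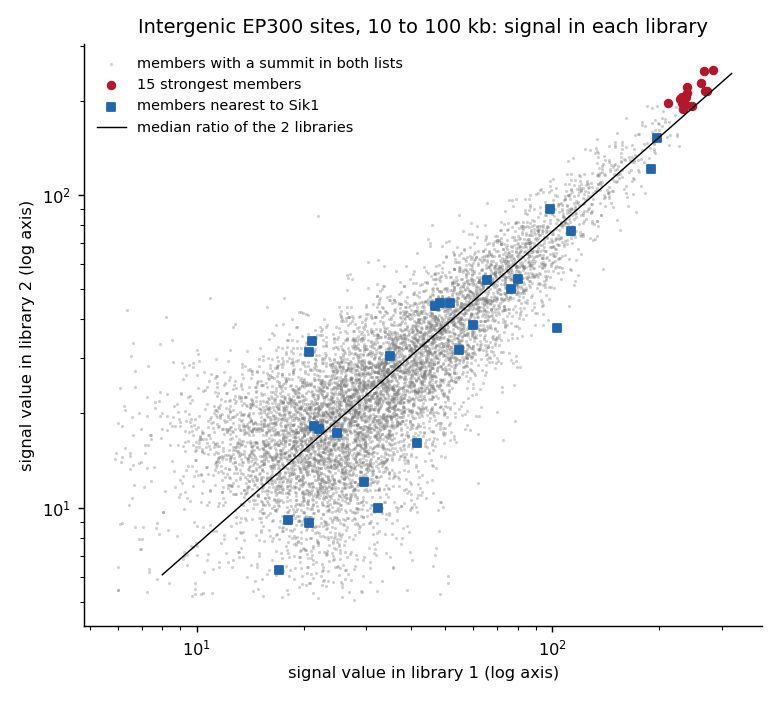
Signal value of each member in library 1 (horizontal, log axis) and in library 2 (vertical, log axis), for the 7875 members with a summit within 100 bp in both libraries' lists; red points are the 15 strongest members and blue squares those nearest to Sik1. The 15 strongest lie at the upper right, close to the line of the median ratio, and the scatter widens toward low signal.

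The libraries shared most members, and the share fell with signal. The optimal set was itself made from these libraries and carries their pooled signal, and each library was cut by rank. Both the share and its fall with signal are therefore partly built in, and they are no independent replication. Of the 9011 members, 5924 were matched, to within 100 bp between summits, by one of the strongest 43988 peaks of each library, 65.7% (Wilson interval 64.8% to 66.7%). Another 2280 had one in 1 library and 807 in neither. In the strongest 10% of members, with signals from 129 to 530, the share was 99.8%, and in the weakest 10%, with signals from 9.96 to 27.9, it was 0.222%. The same share was 64.7% of the 11954 sites at this distance inside protein-coding gene bodies, 66.5% of the 5050 intergenic sites beyond 100 kb and 61.6% of the 8088 sites at 1 to 10 kb. It was 52.2% of the 5315 promoter sites. Over the 7875 members matched in both libraries, the log2 ratio of library 1 to library 2 had a median of 0.39 and an SD of 0.605. After centring on the median of all sites, 89.8% were within 2-fold.

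Single strong members still differed between the libraries. The members nearest to Foxo3 and Qk had signals of 111 and 139 in library 1, against 44.2 and 57.7 in library 2. The members nearest to Ski and Clic5 went the other way, with 75.7 and 77.1 in library 1 and 96.1 and 96.0 in library 2. On the centred log2 scale the ratios of library 1 to library 2 were 0.94 for Foxo3, 0.87 for Qk, -0.74 for Ski and -0.71 for Clic5. They were the 2 farthest on either side among members ranked 2000 or better with a summit in both libraries' lists. A member nearest to Slc44a3, 28.0 kb upstream with signal 167, had 94.4 in library 1 and no matched summit in the list of library 2. The member of Mdm1 at 38.2 kb upstream (signal 162), below that rank, had 21.9 in library 1 and 85.8 in library 2.

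The members' signal was close to that of the other distal classes. The median was 50.7 (quartiles 35.5 and 80.7) for members, 48.9 for gene body sites at the same distance, 49.6 for intergenic sites beyond 100 kb and 44.9 for promoter sites. The ratio of members to gene body sites was 1.04, and it was 1.02 in library 1 and 1.03 in library 2. With 2 libraries an exact sign-flip test over libraries cannot give a two-sided p below 0.5, so no such p is given for any of these class comparisons. Of the strongest 100 peaks of the optimal set 31 were members, against 30 gene body sites at the same distance. In library 1 these counts were 29 and 31, and in library 2 they were 31 and 30, so the order by count was not the same in both. The classes differ in size, however. As a share of their class, members led in the optimal set (0.344% against 0.251%). They also led in library 1 (0.324% against 0.261%) and in library 2 (0.346% against 0.254%).

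The rule covered 501 Mb, 20.3% of the autosomes, and the members' density was 18 per Mb, close to the 17.6 per Mb of all sites. Gene bodies at the same distance held 22.8 sites per Mb, intergenic sequence beyond 100 kb held 6.32 and promoters held 104. Both libraries gave nearly the same member densities, 17.9 per Mb in each. Weaker peaks of the pooled list under the same rule, 43725 in number, were also fewer per Mb intergenically (87.3) than in gene bodies at that distance (127). Across chromosomes the members ranged from 12.2 per Mb on chromosome 14 to 24.4 per Mb on chromosome 11.

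In distance and orientation the members lay much as the weaker sites did. Between 10 and 20 kb from the TSS lay 2149 members (23.8%), between 20 and 50 kb 3744 (41.5%) and between 50 and 100 kb 3118 (34.6%). The weaker sites fell at 23.3%, 41.0% and 35.8%. The median signal hardly changed with distance, at 50.5, 50.5 and 51.0. Members lay upstream of their nearest TSS in 65.8% of cases, against 65.9% of weaker sites. At the thresholds themselves, the 128 members within 500 bp inside the 10 kb limit had a median signal of 47.7 and the 135 intergenic sites within 500 bp outside it had 51.2. At 100 kb the 17 members just inside had 70.1 and the 17 sites just outside 49.1. One of the strongest peaks of the set, near Bnip3 with signal 507 (rank 9), fell just outside, at 9934 bp.

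Members came in runs. Members were joined into a run where neighbouring summits were close, the widest gap in any run being 12488 bp, and where no protein-coding TSS lay between them. The 9011 members formed 4785 runs, of which 2887 were single members (32% of members). Runs of 5 or more numbered 310 and held 2172 members (24.1%), and 37 runs had 10 or more. The median signal was 57.6 in runs of 5 or more, 49.4 in runs of 2 to 4 and 48.3 for members alone. Of all members 1650 (18.3%) had another member's summit within 500 bp.

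The largest run lay between Slc45a1 and Errfi1 on chromosome 4 (mm10 150685325 to 150808699, summit to summit), with 36 members over 123 kb. With at most 5 kb between neighbours the largest run held 11 members, and with the stronger 50% of peaks 18. Errfi1 encodes an inhibitor of EGF receptor signalling and is induced by glucocorticoids, and Slc45a1 encodes a sugar transporter. Of these summits 19 were nearest to Slc45a1 and 17 to Errfi1, and their signals ran from 15.4 to 443 with a median of 59.8. Its summed signal, 3364, was the highest of all runs. Under the same rule library 1 alone had 31 sites in the interval and library 2 had 29, and 24 of the 36 were among the strongest peaks of both.

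Sik1 had the second largest run and the most members of any gene. Sik1 encodes a salt-inducible kinase and is an immediate early gene of cyclic AMP signalling. Its 32 members included a run of 25 over 71.9 kb on chromosome 17, where library 1 had 26 sites and library 2 had 20. The strongest member lay 41.8 kb upstream with a signal of 349, 197 in library 1 and 151 in library 2, and the next at 50.2 kb had 305 (190 and 121). None of the 32 had a GRE or an AP-1 match in its central 100 bp, 4 had ERG, 3 had TEAD and 2 had FOX. The shares of all members were 1.61% for the GRE, 6.64% for AP-1, 8.23% for ERG, 7.0% for TEAD and 8.09% for FOX. With shares this low such counts say little of 32 members, and they were not tested.

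Of the 5 largest runs, 2 had 18 members each. One lay beyond Tmem100, with the highest median signal of the 10 largest runs at 88.9, and 15 of its 18 were among the strongest peaks of both libraries. The other lay between Cebpb, which encodes a C/EBP factor, and Ptpn1, which encodes a tyrosine phosphatase.

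**Figure D2:**
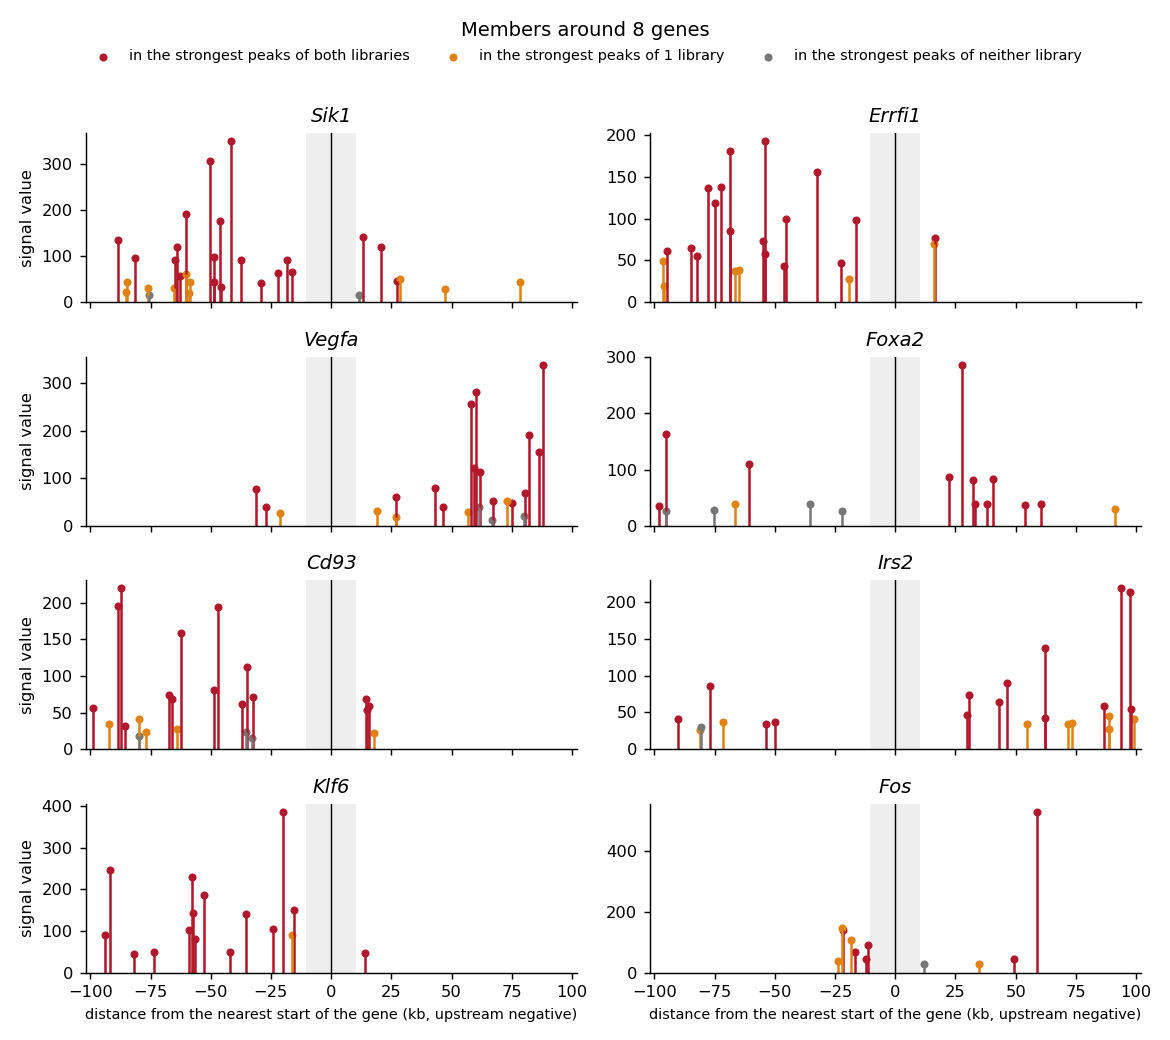
Members around 8 genes, drawn at their distance from the nearest start of the gene (horizontal, kb, upstream negative) with the authors' signal value of the optimal set as height; the grey band is the 10 kb on either side where no site can be a member. Sik1 and Errfi1 have most of their members upstream, Vegfa most downstream, and the tall site of Fos stands alone at 58.8 kb.

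Of the 20720 autosomal protein-coding genes, 3484 were the nearest gene of at least 1 member (16.8%), 513 of 5 or more and 99 of 10 or more. After Sik1 came genes with 23 members each, Vegfa, Cd93, Irs2 and Errfi1 among them, then Irf2bp2 with 22, Slc45a1 and Ptpn1 with 19, and Mbip, Kcnj15, Foxa2 and Podxl with 17. Klf6 and S1pr1 had 16. The genes were of several lung cell types: Vegfa encodes the main endothelial growth factor, Cd93, Podxl and S1pr1 are expressed in endothelium, and Foxa2 encodes a pioneer factor of lung epithelium. Each library alone gave 22 and 16 sites at Vegfa, 21 and 20 at Cd93 and 19 and 21 at Irs2, library 1 first. Their order within this group is therefore not larger than the spread between libraries.

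Members at a gene stood at unlike heights. Vegfa had 20 of its 23 members downstream, the strongest at 87.9 kb with 339 (194 in library 1 and 147 in library 2). Klf6, an immediate early zinc finger factor, had 15 of 16 upstream, the strongest at 19.9 kb with 387 (214 and 171), and 15 of the 16 were in the strongest peaks of both libraries. Foxa2 had its strongest member 27.6 kb downstream with 287 (160 and 130), over GATA and NKX2 matches.

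Sftpb encodes surfactant protein B, which is needed for the first breath. It had 10 members, of which the 4 strongest lay 11.1 to 32.2 kb upstream with signals from 253 to 338. Of these 4, 3 held both FOX and NKX2 matches, and the other held a C/EBP match. The member at 27.4 kb also held a TEAD match, and that at 11.1 kb also held AP-1, GATA and NFI matches. The strongest, at 27.4 kb, had 194 in library 1 and 145 in library 2. Emp2, a membrane protein gene of AT1 cells, had 9 members, and the 2 strongest (336 and 209) each held a TEAD match. Cldn5, the endothelial tight junction gene, had 10 members, all upstream. The strongest (237, with 152 in library 1 and 83.1 in library 2) held ERG and GATA matches. Over all members of each gene, FOX was in 3 of 10 at Sftpb, TEAD in 2 of 9 at Emp2 and ERG in 1 of 10 at Cldn5. Of all members 8.09% had FOX, 7.0% TEAD, 8.23% ERG and 1.89% NKX2, which was in 1.96% of all sites. The ERG count at Cldn5 is close to the ERG share of all members. None of these counts was tested.

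The lists of marker and pathway genes, 14 in all, differed in how many genes had a member, beside 16.8% of all genes. Among the cell types of the lung, 11 of 14 endothelial markers had a member, 8 of 14 AT1 markers, 7 of 12 fibroblast and smooth muscle markers, 6 of 12 alveolar type 2 (AT2) markers, 2 of 6 airway markers and 3 of 6 blood cell markers. Among markers of other organs it was 1 of 6 for neurons, 1 of 6 for hepatocytes and 2 of 6 for cardiomyocytes. Of pathway lists, 18 of 22 immediate early genes had a member, 20 of 25 lung signalling ligands and receptors, 18 of 25 lung developmental transcription factors, 11 of 19 glucocorticoid-responsive genes and 4 of 14 housekeeping genes. The median number of members was 3 for signalling genes, 2.5 for AT1 and for endothelial markers, 2 for glucocorticoid-responsive genes and 0 over all genes.

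A gene with more intergenic sequence around it has more room for members. The 10 to 100 kb sequence nearest to each gene, its territory, had a median of 87.2 kb for signalling genes and 55.8 kb for endothelial markers, against 21.5 kb for the 13202 genes that had any. Per 100 kb of territory there were 10.9 members at glucocorticoid-responsive genes, 9.09 at AT1 markers, 7.66 at immediate early genes, 7.46 at AT2 markers, 6.96 at signalling genes and 6.21 at endothelial markers, against 1.80 over all genes. Both libraries gave similar values for these lists, from 5.73 to 10.6. Hepatocyte markers had 0.348, neuron markers 1.35 and cardiomyocyte markers 1.37 per 100 kb. Fibroblast and smooth muscle markers had 3.73, blood cell markers 4.04 and airway markers 5.45. Lung developmental transcription factors, with the largest median territory of the lists (107 kb), had 2.90. Housekeeping genes had 7.42 (10.5 in library 1 and 9.17 in library 2), from 10 members at Ywhaz, which encodes a 14-3-3 adaptor, and 3 at Actb, beta-actin. These lists were set with earlier results of these data known, so their counts are a description.

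**Figure D3:**
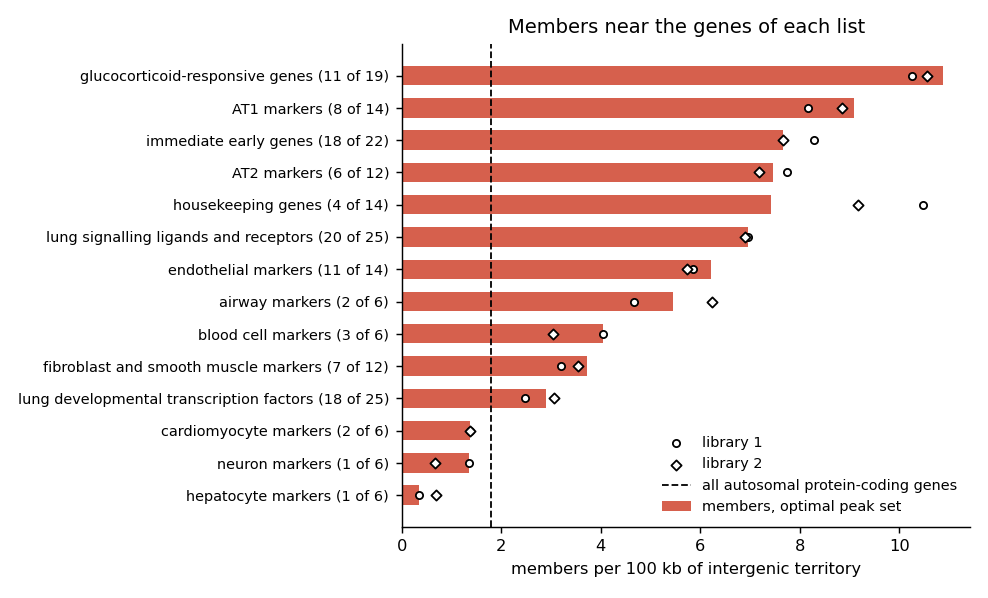
Members per 100 kb of intergenic territory (horizontal) for 14 gene lists, with the number of genes that have a member of the number listed in brackets; bars are the optimal set, open circles library 1, open diamonds library 2, and the dashed line all autosomal protein-coding genes at 1.80. In the optimal set glucocorticoid-responsive genes and AT1 markers stand highest, while in library 1 housekeeping genes stand highest (10.5) and in library 2 they come second (9.17). Hepatocyte, neuron and cardiomyocyte markers are lowest in the optimal set and in both libraries.

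Individual genes of these lists show the range. Among glucocorticoid-responsive genes Irs2, an insulin receptor substrate, and Errfi1 had 23 members each, Nfkbia, an inhibitor of NF-kappaB, had 12 and Ddit4, an inhibitor of mTOR signalling, had 9. The strongest member of Ddit4 had a signal of 410, and the site shown above with a GRE had 370 (204 in library 1 and 166 in library 2). Ednrb, an endothelin receptor, had 12 members, and Lpcat1, a surfactant lipid enzyme, 5. Eln, which encodes elastin, had 6 and Tcf21, a fibroblast transcription factor, 3. Among airway markers, the strongest member of Scgb1a1, a secretory protein of club cells, had 86.7 and that of Trp63, a basal cell factor, 49.5. The strongest members at markers of other organs had 83.6 at Apob, 73.6 at Nkx2-5, 40.5 at Neurod1 and 39.9 at Ryr2.

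Some members lay in enhancers already annotated by RefSeq. A Hedgehog-responsive enhancer of Tgfbr2, a TGF-beta receptor gene, held 2 summits about 67 kb upstream. Their signals were 162 (73.9 in library 1 and 89.0 in library 2) and 76.2, and the taller held a TEAD match. The lung and gut enhancer of Shh, the Hedgehog ligand of the airway epithelium, held 2 summits at 96.3 and 96.6 kb. These had signals of 147 (83.9 and 61.9) and 37.3. Other annotated elements with a member were those of Tbx3 (86.9), Sall1 (69.9) and Epha4 (54.7).

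Enhancers of the VISTA collection, tested in midgestation mouse embryos, held 70 members, 0.777% (Wilson interval 0.615% to 0.980%). The share was 0.748% in library 1 and 0.726% in library 2, against 0.627% of gene body sites at the same distance, 0.396% of intergenic sites beyond 100 kb and 0.233% of weaker sites under the same rule. The 48 elements concerned were active in the heart in 21 cases (43.8%), against 159 of all 617 autosomal elements (25.8%). They were active in the forebrain in 8 cases (16.7%), against 166 of 617 (26.9%). Many VISTA elements were chosen for testing by p300 peaks in embryonic tissues, so the collection is not independent of EP300 binding. The tallest of these members, upstream of Tfpi, an inhibitor of coagulation, had a signal of 236.

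Known binding sequences were more frequent at the members' summits than beside them. The central 100 bp of each member were compared with a flanking window of the same site and similar GC content, for 40 consensus sequences on both strands, by a two-sided exact sign test with Benjamini-Hochberg adjustment. Of the 40, 21 were called higher at the summit (ratio of 1.5 or more with an adjusted p below 0.05) and 0 lower. Only 1 sequence had an unadjusted p under 0.05 with a ratio below 1. Over all autosomal sites 22 of 40 were called (55%), and 20 were shared with the members. Neighbouring windows can overlap, so the p-values are too small. Any called sequence was present in 5420 members (60.1%). The 21 were called on these same centres, and no share of flanks or of all sites with any of them is given beside it. Many are short and frequent in flanks too, such as the NFI hexamer in 9.46% of centres and 5.48% of flanks.

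The GRE, the palindrome bound by the glucocorticoid receptor and other steroid receptors, had the highest ratio among called sequences with at least 20 centres, except that CTCF was higher with a fixed flank 500 bp downstream (17.3, against 13.2 for the GRE). It was in 145 members (1.61%, Wilson interval 1.37% to 1.89%) and in 10 flanks, a ratio of 14.5 (adjusted p = 5.1e-31, exact sign test), against 1.45% of all autosomal sites. The ratio was 16 in library 1 and 26.8 in library 2. The share of all sites is close to that of the members, and GREs were in 1.74% of gene body sites and 1.39% of intergenic sites beyond 100 kb. Members with a GRE were tall. Their median signal was 96.5 against 50.3 for members without one, and 55.8 against 30.0 in library 1 and 40.7 against 22.9 in library 2. Among the strongest 25% of members 81 had a GRE (3.60%), among the weakest 25% 13 (0.577%). Among the tallest were those at Selenbp1 (445), Nufip1 (382), Kcnj15 (379), Ptpn1 (379), Jcad (377), Ddit4 (370) and Klf9 (314). Klf9 encodes a zinc finger factor induced by glucocorticoids.

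Among called sequences the NFI hexamer was in most members (852, against 494 flanks). C/EBP (771, against 295 flanks) and the E-box CAGCTG (763, against 438 flanks) came after it. ERG, FOX, GATA, TEAD and AP-1 sequences were next in number. ERG-type ETS sequences (ACAGGAAA or ACAGGAAG) were in 742 members (8.23%), 3.86 times as many as flanks, against 7.28% of all sites. FOX sequences (TATTTAC or TGTTTAC) were in 729 (8.09%; ratio 3.13), against 7.9% of all sites. TEAD sequences (ACATTCCA, ACATTCCT, GCATTCCA or GCATTCCT) were in 631 (7.0%; ratio 3.29), against 6.72% of all sites. AP-1 sequences (TGACTCA, equal to TGAGTCA on the other strand) were in 598 (6.64%; ratio 3.36), against 5.94% of all sites. Of these shares none is far from the background of all sites. In each library the ratios of ERG, FOX, TEAD and AP-1 lay between 2.88 and 3.92, and every one was called. GATA sequences (AGATAAC or AGATAAG or TGATAAC or TGATAAG) were in 721 members (8.0%; ratio 1.88, and 1.95 in library 1 and 1.98 in library 2), against 7.23% of all sites. STAT sequences (TTCCNGGAA) were in 153 (1.70%; ratio 5.67, and 4.47 in library 1 and 4.94 in library 2), against 1.54% of all sites.

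**Figure D4:**
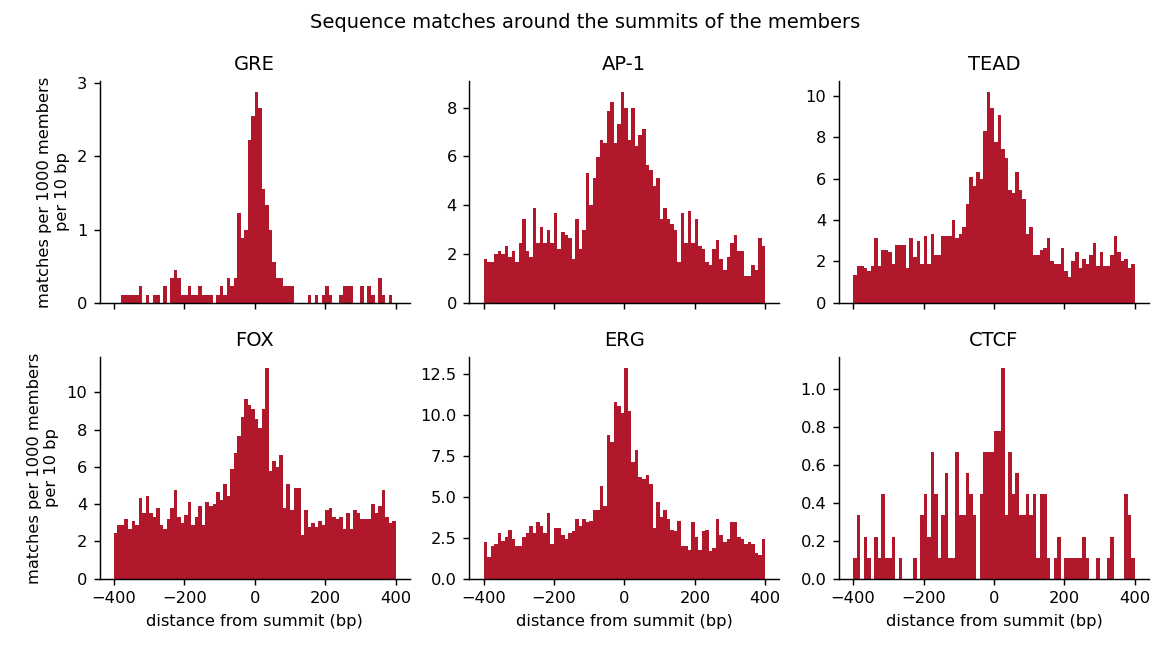
Matches per 1000 members in 10 bp steps (vertical, a separate scale for each sequence) by distance from the summit (horizontal, bp), for 6 sequences. All 6 rise at the summit, the GRE most sharply, with 2.61 matches per 1000 members and step within 20 bp against 0.0943 at 300 to 400 bp.

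The matches lay close to the summits. Of GREs in the central window 59.9% had their centre within 20 bp of the summit, against 47.4% for TEAD, 47.1% for ERG, 41.7% for AP-1 and 40.9% for FOX. GRE, AP-1, TEAD, FOX and ERG were each in 1.61% to 8.23% of members, so few joint matches are to be expected. Any of them matched 2590 members (28.7%), and 245 of these held more than 1 kind. Of the 145 members with a GRE, 6 also had AP-1, 6 FOX, 5 TEAD and 4 ERG. FOX and ERG matched 68 members together. Members with FOX had ERG in 9.33%, near the 8.23% of all members. Members with ERG had FOX in 9.16%, near the 8.09% of all members. TEAD and ERG matched 19, 3.01% of those with TEAD and 2.56% of those with ERG. These lie below the 8.23% of all members with ERG and the 7.0% with TEAD. The FOX and ERG matches overlapped each other in 13 of the 68. In the flanks, where FOX was in only 2.59% and ERG in 2.13%, they matched 2 members together and overlapped in 0. No test was made of these pairs.

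Sequences at low and at high signal differed. ERG was in 11.1% of the strongest 25% of members and 5.81% of the weakest, FOX in 10.7% and 5.73%, and GATA in 11.1% and 5.37%. CTCF, the insulator protein, went the other way. Its sequence was in 52 members (0.577%) and 8 flanks, a ratio of 6.50 (adjusted p = 1.4e-08, exact sign test), against 0.46% of all sites. With so few flanks the ratio was 11.2 in library 1 and 5.90 in library 2, and 17.3 with a fixed flank 500 bp downstream. Members with it had a median signal of 34.0, against 50.9 without, with 20 against 30.3 in library 1 and 17.1 against 23.2 in library 2. Only 1 lay in the strongest 25% and 28 in the weakest, and 40.4% were among the strongest peaks of both libraries. The E-box CAGGTG, bound by SNAI and ZEB repressors, was in 430 centres and 613 flanks. This ratio of 0.70 (adjusted p = 1.2e-08, exact sign test) did not pass the limit for a call. It was 0.63 in library 1, which passed, and 0.76 in library 2, which did not.

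**Figure D5:**
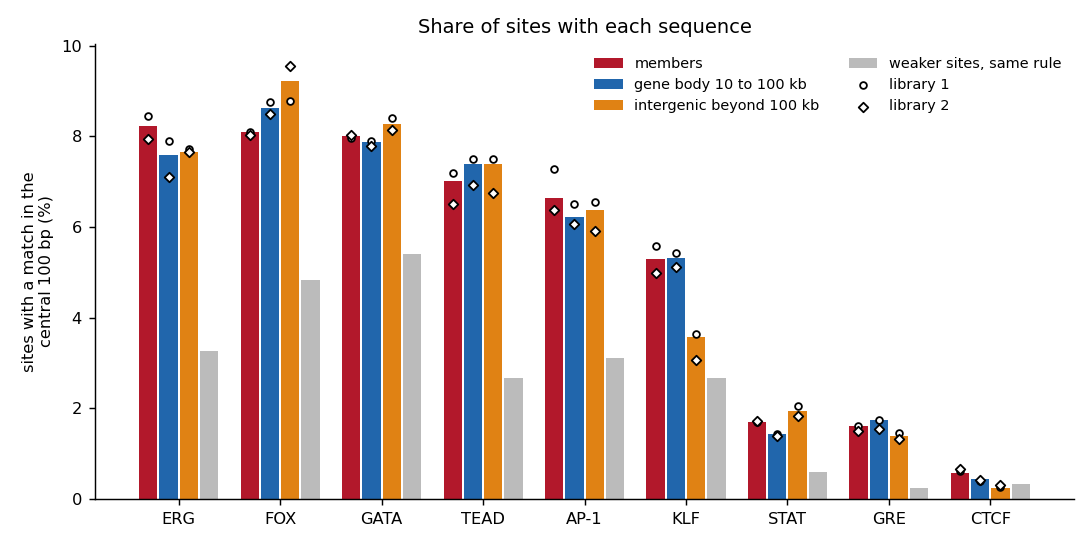
Percent of sites with a match in the central 100 bp (vertical) for 9 sequences; bars are, from left to right, the members, gene body sites at 10 to 100 kb, intergenic sites beyond 100 kb (optimal set) and weaker sites under the members' rule, with each library as an open circle or diamond. For most sequences the members stand close to the other distal classes and above the weaker sites; KLF and CTCF are higher in members than in intergenic sites beyond 100 kb in both libraries.

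The members were also set against the other distal sites. The KLF and SP sequences (CCACACCC, CCACGCCC, CCCCACCC or CCCCGCCC) were in 5.28% of members (5.58% in library 1 and 4.99% in library 2) and in 3.56% of intergenic sites beyond 100 kb (3.63% and 3.07%), beside 6.29% of all sites. CTCF was in 0.577% of members (0.625% and 0.659%) and 0.238% of these sites (0.261% and 0.313%). FOX ran the other way, with 8.09% of members (8.09% and 8.03%) and 9.23% of these sites (8.77% and 9.56%). In the optimal set each gap was wider than the spread between libraries. In library 1 alone the FOX gap (8.09% and 8.77%) was narrower than the spread of the far sites (8.77% to 9.56%). None of the gaps was tested, for want of more libraries. The median GC content of the central window was 46% in members and 44% in the far sites, and its part in these gaps was not tested. Against gene body sites at the same distance, KLF differed by less than the libraries did (5.28% and 5.30%). TEAD was in 7.0% of members (7.19% and 6.50%) and 7.38% of gene body sites (7.49% and 6.92%), which overlap.

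Within the members FOX rose with distance from the TSS, AP-1 and CTCF fell, and the GRE showed no steady change. None of these changes was tested, and CTCF rests on 15, 23 and 14 members. GRE was in 1.72% of members at 10 to 20 kb, 1.39% at 20 to 50 kb and 1.80% at 50 to 100 kb. FOX was in 7.03%, 8.07% and 8.85% in the same order, AP-1 in 7.03%, 6.94% and 6.00%, and CTCF in 0.698%, 0.614% and 0.449%. The member windows had 10.4% of their bases in annotated repeats on average and a median GC content of 46%, against 20.3% and 42% for weaker sites under the same rule.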

How the data were processed

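EP300 ChIP-seq peaks of 2 libraries of newborn lung, 1 group, were analysed. Per the notes deposited with the libraries, reads were aligned to mm10, peaks were listed for each library and for both pooled, and conservative and optimal sets were derived by the irreproducible discovery rate. Which aligner and peak caller were used is not given in the sources used here. Signal values stand as the authors deposited them, with no scaling stated. The optimal set carries the signal of the pooled list, so its values exceed those of the libraries. They were used to rank, describe and filter peaks within a list and to compare summits shared by the libraries. No read counts are given, so depth is unknown. The labels point to a possible control, which was not analysed here. No column of values was left without a sample or set (0 unmapped).

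Summits on chromosomes 1 to 19 were annotated with GENCODE M21 (GRCm38.p6, basic set), in 7 classes, promoters being summits within 1 kb of a protein-coding TSS. No peak reached past a chromosome end of the RefSeq sequence. Each library was represented by its strongest 43988 peaks. Weaker sites were pooled peaks outside the optimal set. Gene territories were measured on a grid of 500 bp. Flanks of 100 bp were taken at 300, 500 or 700 bp on either side, whichever was nearest in GC content. The sign test was tested on simulated data, 9011 windows of random bases at each real window's GC content, with or without planted matches. It called 0 of 40 sequences with nothing planted, 29 with each planted in 1% of sites and 40 with 5%. Random bases lack the repeats and base order of the genome, so the 0 does not measure false calls on genomic sequence. Wilson intervals cover counting error only.

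The members and gene lists were chosen with earlier results of these data known. Genes named by rule were those nearest to the 15 strongest members, the 15 with most members, those of the 5 largest runs and the 2 with most members per list. Genes in annotated enhancers, those named for a GRE, a VISTA element or a difference between libraries, the farther neighbours of the Fos, Ddx47 and Mbip sites, Bnip3, Nfkbia, Ddit4 and those under other observations were named after their values were seen. Some genes that the rule names are not reported here.

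The sequences called and not spelled out in the report were ETS (CCGGAAGT), PU.1 (GAGGAAGTG), SOX (ACAAAGG or ACAATGG), NKX2 (CCACTCAA, CCACTCGA, CCACTTAA or CCACTTGA), C/EBP (TTACNNAAC, TTACNNAAT, TTGCNNAAC or TTGCNNAAT), its palindrome TTGCGCAA, the NFI hexamer TTGGCA, grainyhead-like (AACCGGTT), MEF2 and NF-kappaB. The sequences not called were the glucocorticoid hexamers (AGAACA or GGAACA), the E-box CACGTG, the SNAI and ZEB type E-box given in the report, the TCF21 type E-box (ACAGATGG or ACAGATGT), TCF/LEF (CTTTGATC or CTTTGATG), ARE (TGACNNNGC), HIF (ACGTGC or GCGTGC), RUNX (TGTGGTT), the orphan receptor sequence AAGGTCA, SMAD (GTCTAGAC), HOX (TAATTA), YY1 (AAGATGGCG), and IRF, NRF1, HNF1, RFX, SRF, the nuclear receptor direct repeat and the NFI palindrome. The hexamers overlap their palindromes, and the C/EBP palindrome overlaps the C/EBP sequence. Scripts ran under Python 3.11.15 (scipy 1.17.1, numpy 2.4.6, matplotlib 3.10.9, pandas 2.3.3).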

Additional observations from a re-analysis of the deposited data

How the results depend on the processing

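Members were taken anew from either library alone, from the conservative set and from the optimal peaks with the stronger 50% of signals. They were also taken beyond 20 kb, outside every gene body, and with 1 peak per 500 bp. Noncoding TSSs without TEC genes were added after seeing the data. Of 210 values under an alternative, 189 kept to the main value within the limits set. For counts and ratios of summit to flank these limits were wide. They kept a GRE ratio of 26.8 in library 2 (main value 14.5) and 6862 members beyond 20 kb (main value 9011). They also kept 421 runs of 5 or more with 25 kb between neighbours (main value 310). The values are counts, shares and ratios, which cannot change sign. With the stronger 50% the members numbered 4776, runs of 5 or more 98, and the share in both libraries was 95.2%. That share was 70.9% in the conservative set and with 1 peak per 500 bp, 54.9% for summits within 50 bp and 75.7% for any overlap of 1 bp. Runs of 5 or more numbered 129 with 5 kb between neighbours. The ratio of median signal of members to gene body sites was 1.03 in the conservative set, 1.00 in the stronger 50%, 1.04 over 20 kb and outside every gene body, and 1.03 with 1 peak per 500 bp. Without a replicate it was 1.02 to 1.03, so it stayed above 1 but moved by more than the SD between libraries (0.00149). Without a replicate there were 8952 to 8960 members, 3487 to 3524 genes with a member, 277 to 293 runs of 5 or more and 19 to 20 called sequences. SOX was called in neither library alone (ratio 1.46 in each), KLF not in library 2 (1.47) and grainyhead-like not in library 1 (ratio 3, adjusted p = 0.12, exact sign test), where the NFI palindrome was called in addition. Called sequences numbered 19 to 24 under every alternative, and the E-box CAGGTG was called lower in library 1, in the stronger 50% and with a central window of 200 bp. At single genes, the stronger 50% left 18 members at Sik1, 14 at Vegfa, 14 at Cd93, 9 at Irs2 and 18 in the largest run, which held 11 with 5 kb between neighbours. The cause of these changes was not tested, beyond the smaller number of peaks. A share in both libraries could not be recomputed within 1 library. No paired analysis was possible because there is 1 group only. Unknown depth limits what can be said of sites found in 1 library.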

Other observations

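The smaller runs held further gene groups. Between Clec2d and Cd69, lectin-like receptor genes of lymphocytes and other blood cells, 15 members lay over 31.6 kb, and 14 of them were inside the body of the long noncoding RNA gene 2310001H17Rik. Their signals ran from 17.3 to 226, and 8 of the 15 were among the strongest peaks of both libraries. Upstream of Bdkrb2, which encodes a bradykinin receptor, 17 members lay over 50.1 kb with signals of at most 111. Of these 17, 14 were in the strongest peaks of both libraries, 4 held an ERG match and 3 a FOX match. Over all members ERG was in 8.23% and FOX in 8.09%, and these counts were not tested. A run of 13 between Psma6 and Nfkbia had a strongest signal of 257. Of all members 14.1% lay in the body of a noncoding gene, against 12.8% of weaker sites under the same rule, and Gm31641 held most, 17.

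Sequences differed in whether they lay in runs. Of members with a KLF match 35.1% were in runs of 5 or more, against 24.1% of all members, 19.3% of those with a GRE and 13.5% of those with CTCF. These shares rest on 476, 145 and 52 members and were not tested.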
